A study of Mus musculus with 4 samples.

Results

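The p53 family and genes around it were followed in terminal end buds, the growing tips of the pubertal mammary ducts, with and without deletion of Ovol2. The 10 genes listed were the family members Trp53, Trp63 and Trp73, the p53 inhibitors Mdm2 and Mdm4, and the p53 or p63 targets Trp53inp1, Perp, Zmat3, Sesn1 and Sfn. They were chosen by name, with earlier results of these data known, and every probe set annotated to exactly 1 of them was taken. This gave 10 probe sets for 9 of the 10 genes, out of 21789 probe sets for 19938 genes. Trp53 itself was not analysed here, and of the 9 genes 8 were bright enough to be tested. The knockout group was Ovol2flox/-;K14-Cre, 1 floxed and 1 null allele with Cre recombinase under the keratin 14 promoter, on 2 arrays of 3 mice each. The control group was Ovol2flox/+, on 2 arrays of 2 mice each, and the protocol allows that some controls also carried K14-Cre. All mice were C57/BL6 females, the strain spelled as in the labels, with an age of 4.5 weeks on the sample labels and of 24 to 25 days in the series text, and the series text gives the early age as a way to see changes before the glands differ much in shape. Each array held RNA of a separate pool of littermates, so the spread between arrays is that of pools, and the number of mice per pool cannot be told apart from the genotype.

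p53, p63 and p73 are related transcription factors that bind the same kind of DNA element. p53 is held low by the ubiquitin ligase Mdm2 and its partner Mdm4, and after DNA damage or other stress it switches on genes of cell cycle arrest, repair and cell death. p63 is needed for the formation of the mammary gland and other stratified or bilayered epithelia, and in the adult gland it is a transcription factor of the basal layer, the same layer in which the keratin 14 promoter is active. Inside the end bud, cell death helps to hollow out the lumen.

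The promoter windows of 2 listed genes are shown because one rose and the other did not pass the test, and both hold a p53 half-site in the window. The windows run from 250 bases before to 50 bases after an annotated gene start, 5′ to 3′ on the gene's strand, from RefSeq on GRCm38.p6, and capitals mark the half-site, a palindromic consensus of purines and pyrimidines around a central core.
Sesn1, chr10:41887189-41887488, plus strand: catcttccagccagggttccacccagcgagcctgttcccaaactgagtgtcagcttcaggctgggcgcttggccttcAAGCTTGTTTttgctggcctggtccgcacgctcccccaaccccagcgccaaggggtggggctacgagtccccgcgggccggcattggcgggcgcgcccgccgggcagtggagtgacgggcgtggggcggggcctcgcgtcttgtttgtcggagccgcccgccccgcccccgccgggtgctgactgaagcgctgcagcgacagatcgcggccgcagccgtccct
Mdm2, chr10:117710709-117711008, minus strand: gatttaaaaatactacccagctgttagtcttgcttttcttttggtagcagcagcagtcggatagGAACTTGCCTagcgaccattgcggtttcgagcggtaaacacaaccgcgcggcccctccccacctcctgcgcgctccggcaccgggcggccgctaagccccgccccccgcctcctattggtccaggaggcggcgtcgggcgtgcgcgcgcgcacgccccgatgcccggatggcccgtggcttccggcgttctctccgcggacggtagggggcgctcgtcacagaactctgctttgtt

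Of the 10 listed genes, 6 had windows in the RefSeq table, 9 windows in all. The half-site was in 3 of the 9, against 8.36% of all 32851 windows of this length. These 3 were windows of Trp53, Mdm2 and Sesn1, and the count is too small to be read beyond them. CCGTTA, a core sequence reported for Ovol zinc finger proteins, was searched on both strands and was in 0 of the 9 windows, against 2.76% of all windows. A match is a run of letters, not a bound site, and the second Sesn1 window, at another start of the gene, had neither motif. As background, the best-known p53 elements of Mdm2 lie in its first intron, outside the window shown.

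The arrays had median linear signals between 252 and 272, and the log2 values of all tested genes correlated with r = 0.987 between the knockout arrays and r = 0.991 between the control arrays, across genes, which are not independent. Signals are given as log2(signal + 16) after quantile normalization, and 11963 genes with a mean of at least 7.97 on that scale were tested with limma at an adjusted p of 0.05. Values after ± are SEs of a log2 difference, knockout minus control, with n = 2 arrays per group. Ovol2 read 7.85 and 7.73 in the knockout arrays, against 8.05 and 8.31 in the control arrays, a log2 difference of -0.39 ± 0.16 that did not pass (adjusted p = 0.17). The arrays also differed in markers of other cells. Of 16 fibroblast markers 14 rose and 0 fell, with a summed normalized signal of 28835 and 35571 in the knockout arrays and 13958 and 14583 in the control arrays. Of 7 proliferation genes 7 fell, with sums of 17085 and 17637 in the knockout arrays and 22065 and 21231 in the control arrays. Of 11 tested endothelial markers 5 rose (median 0.61), of 7 tested adipocyte markers 4 rose (median 0.43, and 0.12 over all 12 on the array), and of 3 tested lymphocyte markers 2 fell. Of 15 tested luminal markers 4 rose and 0 fell (median 0.08), and of 8 tested macrophage markers 0 rose and 1 fell. Over all tested genes 6.29% rose and 4.45% fell. No marker was at 0 on any array, and the part of these shifts in the results that follow was not tested. In such bulk tissue fewer cells of a type and less RNA per cell cannot be told apart.

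Among the tested genes of the family, 2 of 8 rose in the knockout, 1 fell and 5 did not pass. Trp53inp1 and Sesn1 rose by about the same amount as Trp63 fell, between 1.28-fold and 1.34-fold. Over all tested genes 10.7% passed the threshold, 6.29% upwards and 4.45% downwards, and 3 of 8 is a count too small to be read beyond its members. The median log2 difference was 0.02 over the 8 genes and -0.02 over all tested genes, so the group did not shift to one side. The knockout arrays both lay on the same side of both control arrays for 7 of the 8 genes, 4 above and 3 below, whereas 56.3% of all tested genes had arrays apart in this way, 26.4% with the knockout above and 29.9% with it below. The count of 3 calls became 1 with median centring, 1 without control replicate 1, and 0 in limma without a mean-variance trend, where 4 of the 8 had an unadjusted p under 0.05.

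**Figure D1:**
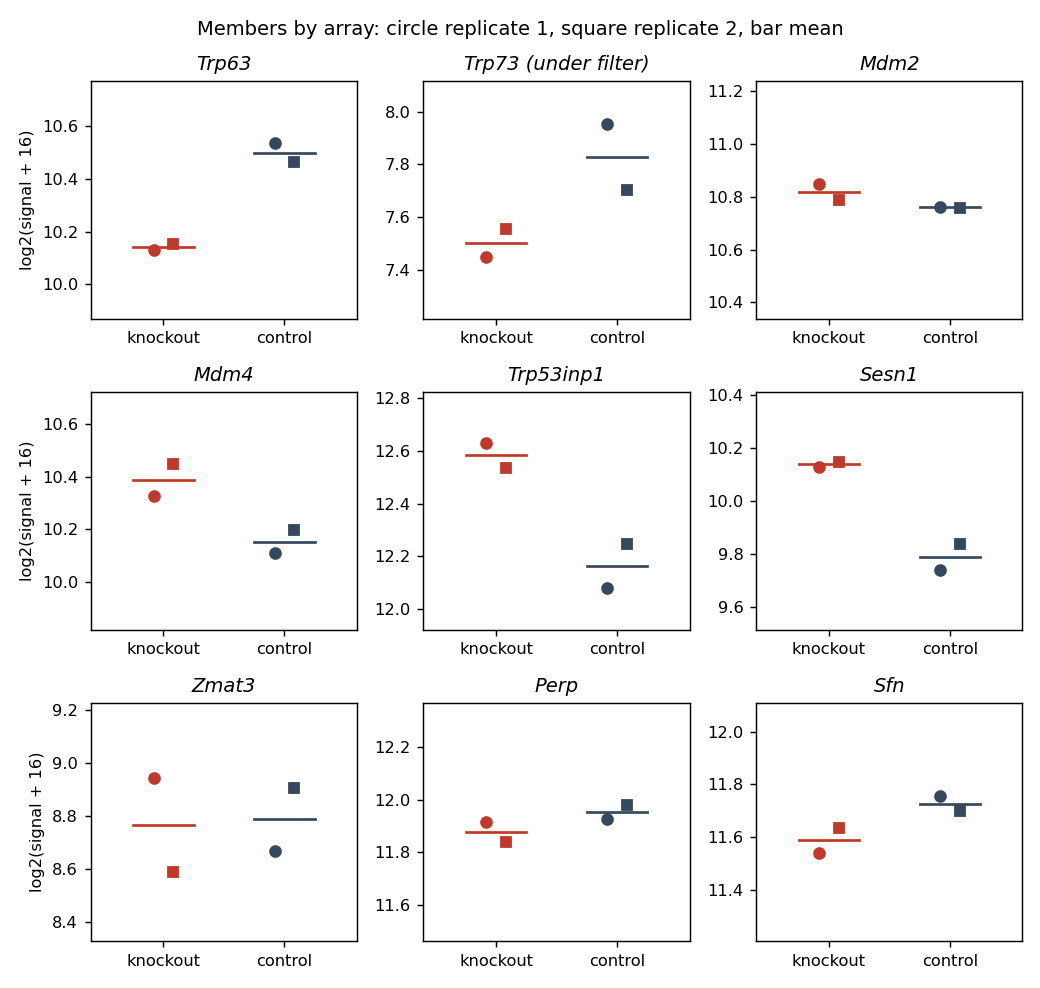
Signal of each analysed gene on each array as log2(signal + 16), knockout left and control right; circles are replicate 1, squares replicate 2, bars the mean of 2 arrays, and every panel spans the same height around its own centre. Trp53inp1 and Sesn1 are higher and Trp63 is lower in both knockout arrays, while the Zmat3 arrays of the groups overlap.

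Trp63, the p63 gene, was lower in the knockout. Its deposited linear signal was 1147 and 1103 in the knockout arrays, against 1434 and 1411 in the control arrays. On the normalized scale it read 10.13 and 10.15 in knockout end buds and 10.54 and 10.46 in control end buds. The knockout arrays lay 0.02 apart and the control arrays 0.08 apart, and the gap between the groups was 0.31, wider than either spread. The log2 difference was -0.36 ± 0.06 (95% CI -0.50 to -0.21, limma adjusted p = 0.00864), which is 1.28-fold lower. The probe set is annotated to many Trp63 transcripts, so the full-length and the amino-terminally truncated forms of p63, which differ in their activation domain, could not be told apart. The size of the difference lay between -0.40 and -0.32 in all 15 alternative settings. The call was lost with median centring of the arrays (limma adjusted p = 0.0714) and without a mean-variance trend (adjusted p = 0.0679). It was also lost without control replicate 1, with 1 control array left (log2 difference -0.32). The lowest limma adjusted p, 5.83e-06, came from the fit with the replicate number as a block. For that fit no pairing is stated, and the variance was taken from the trend alone.

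Trp73, the p73 gene, lay under the filter and was not tested. It read 7.45 and 7.55 in the knockout arrays, against 7.95 and 7.70 in the control arrays. Both knockout values were below both control values, but the control arrays were 0.25 apart and the gap between the groups was 0.15. The unfiltered log2 difference was -0.33, and whether the signal stood above background was not tested.

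Most basal markers past the threshold moved the other way from Trp63. Of 14 tested basal and myoepithelial markers 8 rose and 2 fell, with a median log2 difference of 0.42, against 6.29% and 4.45% of all tested genes. Those that fell were Itgb4 and the transcription factor gene Snai2 (log2 difference -0.39), the second named after its values were seen. The summed signal of all 14 markers was 39713 and 47706 in the knockout arrays, against 33863 and 36282 in the control arrays. Several of those that rose encode contractile proteins that smooth muscle of vessels also makes, and the part of vessels was not tested. The receptor genes Lgr5 (log2 difference 1.08), Oxtr (0.94) and Egfr (0.42) rose too, and they are named after their values were seen. Krt5, a basal keratin of the epithelium, read 11.07 and 11.47 in knockout end buds, against 11.23 and 11.35 in control end buds. Its arrays overlapped between the groups (log2 difference -0.02 ± 0.11, 95% CI -0.27 to 0.22). Krt14, whose promoter drives Cre, read 11.36 and 11.95 in knockout end buds and 11.14 and 11.31 in control end buds, with a log2 difference of 0.43 ± 0.15 that did not pass (limma adjusted p = 0.0993). Leaving out knockout replicate 1 gave 0.72 and leaving out knockout replicate 2 gave 0.14, each with 1 knockout array left. The knockout arrays of both keratin genes lay far apart, with replicate 2 higher, whereas the Trp63 values of the same arrays were nearly equal.

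Neither inhibitor of p53 passed the threshold. Mdm2, the ubiquitin ligase that is itself a p53 target, read 10.85 and 10.79 in the knockout arrays and 10.76 and 10.76 in the control arrays. Its log2 difference was 0.06 ± 0.06 (95% CI -0.07 to 0.19, limma adjusted p = 0.576), and it passed in 0 of 15 alternative settings. Mdm4, which binds p53 and blocks its activation domain, read 10.33 and 10.45 in the knockout arrays, against 10.11 and 10.20 in the control arrays. The knockout arrays were both higher, by a gap of 0.13 that was about as wide as their own distance of 0.12. The log2 difference of 0.23 ± 0.07 (95% CI 0.07 to 0.39) did not pass (limma adjusted p = 0.0679). It lay between 0.17 and 0.29 over the alternatives and passed in 3 of 15. Of these, 1 was the fit without knockout replicate 1 (0.29), with 1 knockout array left.

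**Figure D2:**
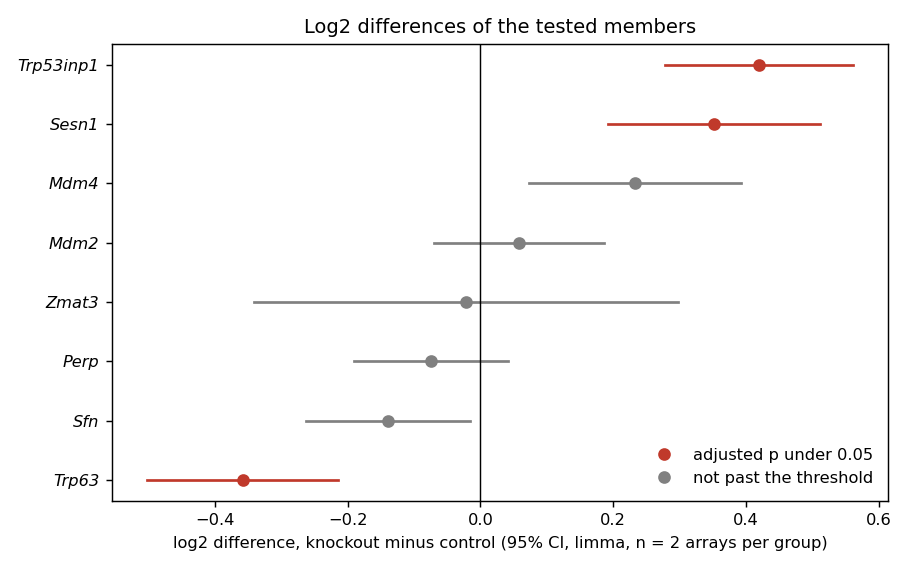
Log2 difference, knockout minus control, of the 8 tested genes with 95% confidence intervals from limma, in order of size; red marks an adjusted p under 0.05 and grey a gene not past it. Trp53inp1 (0.42) and Sesn1 (0.35) lie to the right, Trp63 (-0.36) to the left, and the widest interval belongs to Zmat3.

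The p53 targets among the listed genes did not move as 1 group. Trp53inp1, a nuclear stress protein that takes part in p53-dependent cell death and in autophagy, had the largest increase of the 8. Its deposited linear signal was 6352 and 5956 in the knockout arrays, against 4302 and 4812 in the control arrays. Normalized, it read 12.63 and 12.53 in knockout end buds, against 12.08 and 12.24 in control end buds. The gap of 0.29 between the groups was wider than the distance of 0.10 between the knockout arrays and of 0.17 between the control arrays. It rose 1.34-fold (log2 difference 0.42 ± 0.06, 95% CI 0.28 to 0.56, limma adjusted p = 0.00381). It stayed past the threshold in 14 of 15 alternatives and was lost without a mean-variance trend (adjusted p = 0.0727, the highest over its alternatives).

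Sesn1, a sestrin that restrains mTORC1 signalling, rose 1.28-fold. It read 10.13 and 10.15 in knockout end buds, against 9.74 and 9.84 in control end buds. The knockout arrays nearly coincided, and both stood above the control arrays by a gap of 0.30. The log2 difference was 0.35 ± 0.07 (95% CI 0.19 to 0.51, limma adjusted p = 0.0141). It was between 0.30 and 0.40 over the 15 alternatives, and the call was lost with median centring (adjusted p = 0.213), without a mean-variance trend (adjusted p = 0.0699) and without control replicate 1 (adjusted p = 0.117).

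Zmat3, an RNA-binding zinc finger protein and p53 target, had the largest SE of the 8 tested members. It read 8.94 and 8.59 in the knockout arrays, against 8.67 and 8.91 in the control arrays. The knockout values lay on either side of both control values, with a log2 difference of -0.02 ± 0.14 (95% CI -0.34 to 0.30), whose sign turned in 3 of 14 alternatives.

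Perp and Sfn, targets known from epithelia, were slightly lower in the knockout and did not pass. Perp, a membrane protein of desmosomes that both p53 and p63 activate, read 11.92 and 11.84 in knockout end buds and 11.93 and 11.98 in control end buds. The 2 groups were separated by 0.01 only, and the log2 difference was -0.07 ± 0.05 (95% CI -0.19 to 0.04, limma adjusted p = 0.418). Sfn, which encodes the epithelial cell cycle regulator 14-3-3 sigma, had 2 probe sets annotated to the same transcript, and whether both read the same locus is not known here. The brighter one read 11.54 and 11.64 in the knockout arrays, against 11.76 and 11.70 in the control arrays. The other read 11.23 and 11.29 in the knockout arrays, against 11.40 and 11.42 in the control arrays. Both probe sets were lower in both knockout arrays, with log2 differences of -0.14 and -0.15, and in the fit by gene the brighter one differed by -0.14 ± 0.06 (95% CI -0.26 to -0.02, limma adjusted p = 0.145).

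A wider list of p53 target genes passed about as often as all tested genes. Of 33 further targets 26 were tested, of which 2 rose, 1 fell and 23 did not pass. That is 11.5% called, against 10.7% of all tested genes, and the list median was -0.06. Gadd45a, a growth arrest and DNA damage gene, read 10.53 and 10.59 in the knockout arrays and 9.75 and 9.96 in the control arrays. It rose 1.63-fold (log2 difference 0.70 ± 0.08, limma adjusted p = 0.00114) and stayed past the threshold in 15 of 15 alternatives. Btg2, an antiproliferative cofactor of transcription, read 12.03 and 12.02 in the knockout arrays, against 11.72 and 11.76 in the control arrays, and rose 1.22-fold (limma adjusted p = 0.00688). It was lost with median centring (adjusted p = 0.141) and without a mean-variance trend (adjusted p = 0.085). Trp53i11, a p53-inducible gene, was lower, at 10.78 and 10.70 in the knockout arrays against 11.16 and 11.29 in the control arrays. It fell by 0.49 ± 0.06 on the log2 scale (limma adjusted p = 0.00216), and its call was lost only without a mean-variance trend (adjusted p = 0.0595).

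The cell death and cycle targets fixed for naming did not pass. Bbc3, which encodes the pro-apoptotic protein PUMA, read 8.26 and 8.23 in the knockout arrays, against 8.57 and 8.52 in the control arrays. Both knockout values were lower, with a log2 difference of -0.30 ± 0.12 (limma adjusted p = 0.155) at a signal near the filter. Ccng1, the cyclin G1 gene, read 11.81 and 11.64 in knockout end buds and 11.69 and 11.61 in control end buds, which overlapped (log2 difference 0.07 ± 0.06). Cdkn1a, Bax and Gls2 were not analysed here. Of 4 targets under the filter, named after their values were seen, the unfiltered log2 difference was 0.34 for Eda2r, 0.32 for Fas, -0.03 for Pmaip1 and -0.27 for Rprm.

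Genes that act on p53 passed about as often as all tested genes. Of 25 tested kinases, ligases and cofactors 1 rose, 2 fell and 22 did not pass, 12% called against 10.7% of all tested genes, with a median of -0.003. The checkpoint kinase genes Chek2 and Chek1 were the members that fell. Chek2 read 8.78 and 8.79 in the knockout arrays, against 9.14 and 9.16 in the control arrays (log2 difference -0.37 ± 0.10, limma adjusted p = 0.0383). Chek1 read 9.53 and 9.52 in the knockout arrays, against 9.90 and 9.79 in the control arrays (log2 difference -0.32 ± 0.08, limma adjusted p = 0.0302). Both kinases act in dividing cells, and the 7 proliferation genes fell in the same arrays with a median of -0.30; their part in the Chek1 and Chek2 values was not tested. Trp53bp1, a double-strand break repair factor that binds p53, rose by 0.26 ± 0.07 on the log2 scale, at 10.14 and 10.18 in the knockout arrays against 9.85 and 9.94 in the control arrays (limma adjusted p = 0.0402). Without control replicate 1 limma called 0 genes of the list (5 at an unadjusted p under 0.05), and the adjusted p was 0.217 for Chek2, 0.268 for Chek1 and 0.275 for Trp53bp1. Without control replicate 2 it also called 0 (8 at an unadjusted p under 0.05), with an adjusted p of 0.156, 0.0503 and 0.0669 in the same order, and without knockout replicate 2 Trp53bp1 was lost (adjusted p = 0.0663).

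**Figure D3:**
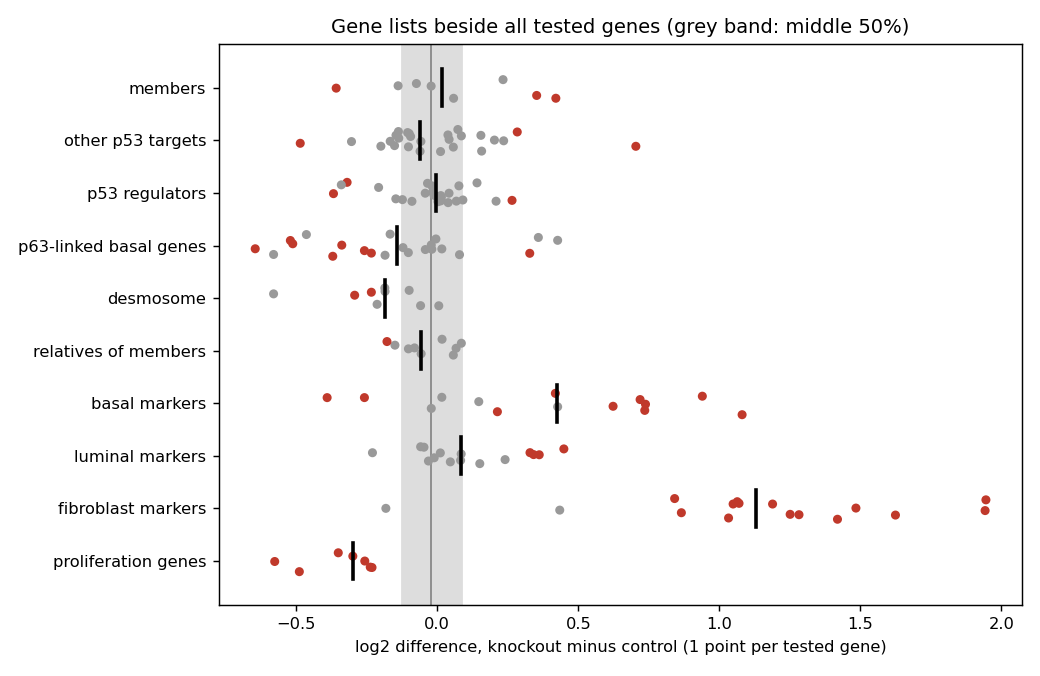
Log2 differences, knockout minus control, of every tested gene of each list, 1 point per gene; red marks an adjusted p under 0.05, the black bar is the list median, the grey band holds the middle 50% of all tested genes. The p53 lists straddle 0, the p63-linked basal genes reach from -0.65 to 0.43, and all fibroblast points but one and all proliferation points lie on opposite sides of 0.

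Basal epithelial genes linked to p63 fell more often than they rose. Of 22 tested genes 7 fell, 1 rose and 14 did not pass, with a median of -0.14. The share called was 36.4%, against 10.7% of all tested genes, and 5 of 22 were higher, against 44.3% of all tested genes. The genes are from general knowledge of p63, but were listed with earlier results of these data known. The shares above are therefore no independent test. Krt5, Krt14, Itga6 and Itgb4 were tested in both this list and the basal marker list, and Itgb4 is a call of both. The list includes parts of the hemidesmosome and basement membrane that anchor basal cells. Lamb3, a chain of laminin-332, read 9.54 and 9.50 in the knockout arrays and 10.16 and 10.18 in the control arrays. It fell by 0.65 ± 0.07 on the log2 scale (limma adjusted p = 0.000933) and stayed past the threshold in 15 of 15 alternatives. Col17a1, the transmembrane collagen of hemidesmosomes, read 10.29 and 10.50 in the knockout arrays, against 10.90 and 10.94 in the control arrays, and fell by 0.52 ± 0.08 (limma adjusted p = 0.00308). Itgb4, the integrin chain of the same structure, fell by 0.26 ± 0.07, at 10.62 and 10.48 in the knockout arrays against 10.80 and 10.81 in the control arrays (limma adjusted p = 0.0346). Its call was lost in 8 of 15 alternatives, with an adjusted p of up to 0.2. Dst, a cytoskeletal linker gene with a hemidesmosomal form, was the 1 gene of the list that rose (log2 difference 0.33 ± 0.06), and it is named after its values were seen. Not all anchoring genes of the list moved. The laminin chain gene Lama3 differed by -0.005 ± 0.10 and the integrin chain gene Itga6 by 0.02 ± 0.05. Neither passed, the arrays of both overlapped between the groups, and both are named after their values were seen.

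Among the signalling genes of that list 3 fell, a grouping made after the values were seen. Others did not pass and had overlapping arrays: Fgfr2 (log2 difference 0.08 ± 0.06), Jag1 (-0.10 ± 0.09) and Ripk4 (-0.02 ± 0.07). The receptor gene Fgfr3 read 9.19 and 8.90 in the knockout arrays, against 9.52 and 9.60 in the control arrays (log2 difference -0.51 ± 0.11, limma adjusted p = 0.0172). The Notch ligand gene Jag2 read 10.08 and 10.05 in the knockout arrays, against 10.39 and 10.47 in the control arrays (log2 difference -0.37 ± 0.07, limma adjusted p = 0.00824). The BMP ligand gene Bmp7 read 10.66 and 10.55 in the knockout arrays, against 10.94 and 10.95 in the control arrays (log2 difference -0.34 ± 0.06, limma adjusted p = 0.00898). For the 3 that fell both knockout arrays lay below both control arrays. Over the 22 tested genes of the list 10 lay below and 3 above in this way. That is 59.1% apart, against 56.3% of all tested genes, 29.9% below and 26.4% above. Without a mean-variance trend Lamb3 alone passed, and the adjusted p was 0.0633 for Col17a1 and 0.0759 for Bmp7. Without control replicate 1 the list had 5 calls, and Fgfr3 was lost (adjusted p = 0.0586); without control replicate 2 it also had 5, again with Fgfr3 lost (adjusted p = 0.0659). The lower values stood beside higher values of most basal markers past the threshold and of fibroblast markers in the same arrays. The part of a changed mix of cells was not tested.

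Desmosomal genes, the structure to which Perp belongs, were lower in 8 of 9 tested cases and higher in 1, against 44.3% higher among all tested genes. Of the 9, 2 fell and 0 rose, a share called of 22.2% against 10.7% of all tested genes, and the list median was -0.19. Dsp, the desmoplakin gene, read 11.56 and 11.47 in knockout end buds and 11.70 and 11.80 in control end buds (log2 difference -0.23 ± 0.06, limma adjusted p = 0.0302). Dsc2, a desmosomal cadherin gene, read 10.36 and 10.17 in knockout end buds and 10.59 and 10.53 in control end buds (log2 difference -0.29 ± 0.08, limma adjusted p = 0.0376). Dsp, Pkp1 and Dsc3 were tested in both this list and the p63-linked list. Dsp is a call of both, so the lists are not independent. The desmosomal list too was chosen with earlier results of these data known, so its shares are no independent test. With control replicate 2 or knockout replicate 2 left out 0 desmosomal genes passed in limma (3 and 4 at an unadjusted p under 0.05), with an adjusted p of 0.112 and 0.0813 for Dsp and of 0.0642 and 0.132 for Dsc2.

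Close relatives of the listed genes were compared as well. Among 9 tested relatives 1 fell, 0 rose and 8 did not pass, 11.1% called against 10.7% of all tested genes, with a median of -0.06. Sesn2 and Sesn3, the other sestrins, had log2 differences of 0.06 ± 0.10 and 0.09 ± 0.07, and Trp53inp2, the relative of Trp53inp1, of 0.07 ± 0.07, none past the threshold. Whether they differ from Sesn1 and Trp53inp1 was not tested. These 3 are named after their values were seen. Of the other 14-3-3 genes Ywhah fell by 0.18 ± 0.05 on the log2 scale, at 12.17 and 12.10 in the knockout arrays against 12.32 and 12.31 in the control arrays (limma adjusted p = 0.0443). Its call was lost in 7 of 15 alternatives, with an adjusted p of 0.14 without control replicate 1, 0.0764 without control replicate 2 and 0.219 without knockout replicate 2.

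**Figure D4:**
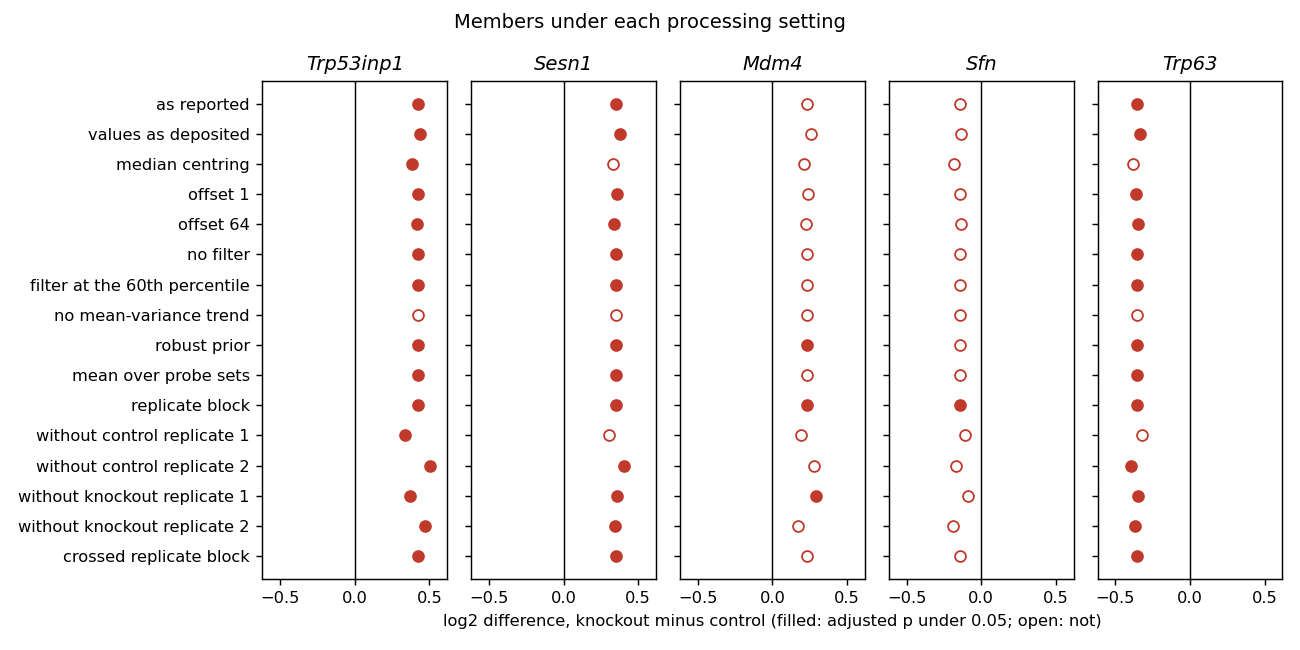
Log2 difference, knockout minus control, of 5 listed genes under each processing setting, 1 row per setting; filled points passed an adjusted p of 0.05 and open points did not. Trp53inp1, Sesn1 and Trp63 keep their side of 0 in every row, and the fit without a mean-variance trend leaves all 5 genes open.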

How the data were processed

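RNA of terminal end buds was hybridised to 4 single-colour Affymetrix whole-transcript arrays. The deposited table holds 1 linear signal intensity per probe set and array for 35556 probe sets. It was made by the authors with Affymetrix Expression Console 1.1.1 and PLIER 2.0, per the submitters' processing notes; the background correction, the normalization and the build are not stated. The platform annotation gave the names: 21789 carry 1 symbol, 1621 several, and 12146 are unnamed here; 21698 of the 21789 matched a RefSeq gene table. Values were taken as log2(signal + 16) and quantile normalized. Per gene the probe set with the highest mean was used, and genes under the 40th percentile of means (7.97) were left out of the test. Groups were compared with limma 3.58.1 (R 4.3.3; lmFit, eBayes with trend, 2 residual and 7.58 prior degrees of freedom), with Benjamini-Hochberg adjustment over 11963 genes; the functions were tested on simulated data. No detection calls were used, and 2 arrays per group limit the precision.

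The listed genes and the gene lists were chosen with earlier results of these data known. Genes named are the 10 listed, Ovol2 and Krt14, and in each list the called genes with the largest log2 difference (up to 5, or 3 for desmosomal genes and relatives), plus Cdkn1a, Bbc3, Bax, Ccng1, Krt5 and Itgb4. Alternatives were the values as deposited, median centring, offsets of 1 and 64, and no filter or a filter at the 60th percentile. Further ones were no trend, a robust prior, the mean over probe sets, a replicate block, and each array left out. The counts of alternatives also include a crossed replicate block, which was not planned and was chosen after the data were seen.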

Additional observations from a re-analysis of the deposited data

How the results depend on the processing

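Precision is limited by 2 arrays per group, and in the fits as deposited, with median centring, with a replicate block and without either knockout array the variance was taken from the trend alone. The count of called genes was 1285 as reported, 753 with median centring, 188 without a mean-variance trend, 2246 with a replicate block, and between 476 (without control replicate 1) and 2347 (without knockout replicate 1) with 1 array left out. Of the listed genes 3 passed as reported, 1 with median centring, 0 without a mean-variance trend, 5 with a replicate block, and between 1 and 4 with 1 array left out. Without a mean-variance trend 1 further p53 target (3 as reported) and 1 p63-linked gene (8 as reported) passed. With 1 array left out the p63-linked count ranged from 5 to 12 and the target count stayed at 3. The p53 regulators, 3 as reported, numbered 1 as deposited, 0 with median centring, 0 without the trend, 5 with a robust prior, 7 with a replicate block and 0 to 5 with 1 array left out. The desmosomal genes, 2 as reported, numbered 4 as deposited, 1 with median centring, 1 with no filter, 0 without the trend, 4 with a replicate block and 0 to 4 with 1 array left out. The relatives, 1 as reported, numbered 0 with median centring, 0 without the trend, 0 with the mean over probe sets, 2 with a replicate block, 0 with a crossed block and 0 to 1 with 1 array left out. At an unadjusted p under 0.05 the fit without the trend called 4 listed genes, 6 regulators, 3 desmosomal genes and 1 relative. The cause of these shifts was not tested. Of all called genes 58.6% rose as reported and 76.06% without the trend.

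The sign turned for Zmat3 in the values as deposited (0.033), without control replicate 2 and without knockout replicate 2 (range with 1 array left out -0.20 to 0.16), for Ccng1 without knockout replicate 1 (-0.010, range -0.010 to 0.16), and for Krt5 without control replicate 2 and without knockout replicate 1 (range -0.22 to 0.18); none of the turned values passed. The arrays of the groups share replicate numbers but no stated pairing, and the deviations of same-numbered arrays correlated with r = -0.196 across genes. The replicate block added Mdm4 (adjusted p = 0.00823) and Sfn (adjusted p = 0.0468) to the calls, and Krt14 outside the listed genes (adjusted p = 2.4e-13); median centring (adjusted p = 0.00653) and the deposited scale (adjusted p = 1.21e-07) called Krt14 too, and the crossed pairing, chosen after seeing the data, called 1203 genes in all and 3 of the listed genes.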
